A study of Mus musculus with 9 samples.

Results

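The genes described here are the mouse major histocompatibility complex (MHC) genes and the genes that serve antigen presentation with them, measured in lumbar dorsal root ganglia, which hold the cell bodies of the sensory neurons of the hind body. They were taken by name, as all protein-coding genes whose symbol starts with H2- together with B2m, Tap1, Tap2, Tapbp, Cd74, Ciita and Nlrc5, which gave 41 of the 55536 genes counted. Of the 41, 24 encode class I heavy chains, 5 serve class I, 9 encode class II chains, 2 serve class II, and H2-Ke6 carries an H2 symbol but belongs to neither class. Messenger RNA was sequenced in 9 libraries from adult C57Bl6 mice, 1 month after tamoxifen, the drug that switches on the inducible knock-out. The icKO group, 5 libraries, carried an inducible conditional knock-out of Prdm12, a transcriptional regulator known for its role in nociceptors. The control group, 4 libraries, is labelled wild type, so effects of whatever else makes the knock-out inducible cannot be told apart from those of losing Prdm12. What drives the recombination, the deleted exon and the number of animals per library are not stated in the labels. The p-values therefore speak only of the spread among these libraries, part of which may be technical.

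Class I molecules consist of a heavy chain joined to beta-2-microglobulin, the product of B2m, and show peptides from inside the cell to CD8 T cells. Their peptides are cut by the proteasome, carried into the endoplasmic reticulum by the TAP transporter and loaded with the help of tapasin, and Nlrc5 is known as a transactivator of the class I genes. Class II molecules are pairs of an alpha and a beta chain, guided by the invariant chain Cd74 and loaded with the help of H2-DM, and they show peptides taken up from outside to CD4 T cells. Ciita is their main transactivator, and macrophages, dendritic cells and B cells are the cells best known for them. Most neurons are known for low class I and no class II at rest, and whole ganglia also hold glia, fibroblasts, vessels and resident macrophages.

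The sequences just before the start sites of 5 members are shown because they carry short motifs known from MHC gene control. They come from RefSeq on GRCm38.p6, which held a promoter for 34 of the 41 members. Each is the 180 bases before the RefSeq start, on the gene's own strand, with the motif in capitals: the interferon response letters, TTTC and TTTC with any 2 bases between them, here in reverse complement, in B2m (chr2:122147507-122147686, plus strand), the kappa B letters GGGATTCCC in H2-K1 (chr17:34000348-34000527, minus strand), the kappa B letters and, in reverse complement, the Y box letters CTGATTGG in H2-D1 (chr17:35262914-35263093, plus strand), and the Y box in H2-Aa (chr17:34287824-34288003, minus strand) and H2-Eb1 (chr17:34305687-34305866, plus strand).
B2m: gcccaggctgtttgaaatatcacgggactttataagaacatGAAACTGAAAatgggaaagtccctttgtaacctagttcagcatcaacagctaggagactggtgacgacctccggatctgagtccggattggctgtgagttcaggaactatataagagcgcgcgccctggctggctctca
H2-K1: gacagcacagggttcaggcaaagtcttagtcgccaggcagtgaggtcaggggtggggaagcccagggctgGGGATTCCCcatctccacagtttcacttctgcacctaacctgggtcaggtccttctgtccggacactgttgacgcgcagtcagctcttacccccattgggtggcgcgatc
H2-D1: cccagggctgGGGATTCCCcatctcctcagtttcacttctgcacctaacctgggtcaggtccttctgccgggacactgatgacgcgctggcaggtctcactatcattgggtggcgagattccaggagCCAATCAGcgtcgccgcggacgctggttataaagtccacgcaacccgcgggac
H2-Aa: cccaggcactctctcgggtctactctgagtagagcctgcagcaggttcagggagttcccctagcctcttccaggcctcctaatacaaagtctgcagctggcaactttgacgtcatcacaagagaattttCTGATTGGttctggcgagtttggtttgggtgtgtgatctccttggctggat
H2-Eb1: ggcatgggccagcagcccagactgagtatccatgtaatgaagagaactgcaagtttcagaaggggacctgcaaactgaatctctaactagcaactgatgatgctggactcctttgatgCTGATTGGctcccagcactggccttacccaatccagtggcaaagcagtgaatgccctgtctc

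Each motif was searched on both strands in the window from 250 bases before to 50 bases after each RefSeq start, and no overlap between motifs was found in the members. The kappa B letters were in 4 members, H2-D1, H2-K1, H2-Q6 and H2-Q7, and in 0.353% of the 32851 windows of all genes. The interferon response letters were in 3 members, B2m, H2-T22 and H2-T23, and in 3.44% of all windows. Only these exact letters were searched, so members without a match, H2-K1 and H2-D1 among them, may hold a variant. The Y box letters were in 18 members of both classes, and in 4.1% of all windows. They ran forward in the class II members and in reverse complement in the class I members, Tap1 included. The same letters thus need not be the same element in both classes. Related class I genes share their upstream sequence, so these counts do not stand for independent genes, and a match of letters shows no binding.

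Library totals ranged from 19607740 to 29481589 counts. For a gene with no counts, a floor of 3 counts was taken as the limit of counting error. It stood for 0.101 to 0.155 CPM, read counts scaled to a common library total. Counts of 0 stayed at 0 and were not raised to this floor. Prdm12 itself checked the labels, with 23.4, 24.2, 24.1, 22.3 and 26.2 CPM in icKO 1 to 5, against 128, 129, 116 and 163 CPM in control 1 to 4. Summed sensory neuron markers were at 7346 to 8743 CPM in icKO libraries and 7606 to 8908 CPM in control, with all 7 present. The 4 libraries icKO 1, icKO 2, control 1 and control 3 held 98.5 to 166 CPM of Y-linked transcripts, and the other 5 held 0.105 to 3.64 CPM. The sex-linked transcript Xist went the opposite way, at 0.775 to 1.14 CPM in those 4 libraries and 310 to 389 CPM in the other 5. The split thus follows sex-linked expression, though the sex of the mice is not in the labels. These sets are called libraries with high and low Y-linked counts below. Genes were tested with edgeR's quasi-likelihood test, which called 82 of 17258 higher (0.475%) and 65 lower (0.377%) in icKO, 0.852% in either direction, once p was adjusted by Benjamini-Hochberg and held under 0.05.

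Antigen presentation genes differed little between icKO and control ganglia, and B2m was the 1 member that passed the test. Of the 41 members, 26 passed the filter on low counts. Of these, 1 was higher (0.475% of all genes tested), 0 were lower (0.377%) and 25 did not pass by edgeR's quasi-likelihood test. At an unadjusted p under 0.05, 3 were higher (B2m, H2-K1 and H2-Q4, against 4.85% of all genes) and 2 lower (H2-M11 and H2-M5, against 6.26%). Their median log2 fold change was 0.18, against -0.00 over all genes tested, with 20 above 0 and 6 below (49.8% of all genes were above 0). In 2 members, B2m and H2-K1, every icKO library lay above every control library, as in 2.16% of all genes tested, and in 0 members every icKO library lay below every control library (2.34%).

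**Figure D1:**
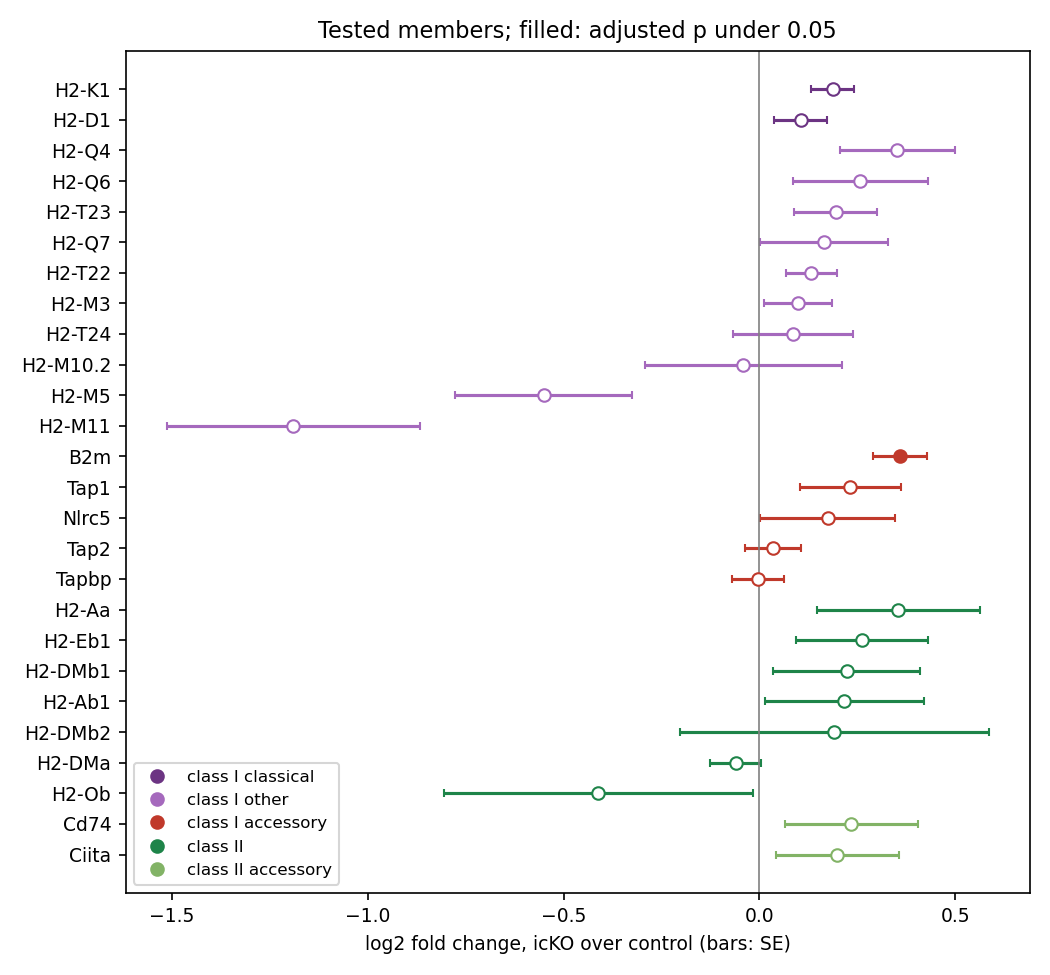
Log2 fold change of icKO over control (x axis, with its standard error as a bar) for the 26 members that passed the count filter, coloured by role and ordered within each role. The 1 filled point, B2m at 0.36, passed an adjusted p of 0.05; H2-M11 lies farthest from 0, at -1.19, with an SE of 0.32.

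The class I light chain gene B2m (ENSMUSG00000060802), at chr2:122147686-122153083 on the plus strand with 1 annotated transcript, was higher in icKO. It had 385, 422, 371, 426 and 363 CPM in icKO 1 to 5, against 296, 328, 283 and 322 CPM in control 1 to 4. All 5 icKO libraries lay above all 4 control libraries, and the gap between the lowest icKO and the highest control library was smaller than the range within either group. The means were 394 ± 29.1 CPM in icKO and 307 ± 21.3 CPM in control (SD, n = 5 and 4), a 1.28-fold difference. The log2 fold change (log2 FC) was 0.36 (SE 0.07; adjusted p = 0.0303 by edgeR's test). Between 9203 and 11456 reads per icKO library and 6244 and 8084 per control library stood behind these values. B2m shared no exact 50-base stretch with another annotated gene, so such sharing puts none of its counts in doubt. Near matches and copies outside the annotation were not searched.

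The B2m call was lost without any 1 of 5 libraries. Leaving out icKO 1 (adjusted p = 0.0835), icKO 2 (0.0718), icKO 4 (0.073), control 1 (0.091) or control 3 (0.0949) ended it by edgeR's test, while the log2 FC kept to 0.33 to 0.39 over all 9 libraries left out in turn. Among the 4 libraries with high Y-linked counts the log2 FC was 0.49 (SE 0.08, adjusted p = 0.18 by edgeR's test), and within the 5 with low counts it was 0.25 (SE 0.10, adjusted p = 0.844). The difference between those values was 0.23 (SE 0.13; interaction adjusted p = 1.00, edgeR's test). Neutrophil markers lay in the same direction, at a summed 22.3 to 51.5 CPM in icKO and 16.0 to 25.1 CPM in control over 6 genes. Of these, 5 were tested, 0 passed and 4 were higher at an unadjusted p under 0.05 (against 4.85% of all genes tested). The defining marker Ly6g was near the floor, at 0.0697 to 0.387 CPM in icKO and 0.0729 to 0.155 CPM in control. The ratio of icKO over control means of the neutrophil sum was 1.74, the highest among the lists of cell type markers. It was 0.911 for dendritic cell, 0.975 for sensory neuron and 1.00 to 1.19 for all other such lists, with B cell markers at 1.19. The part of neutrophils or of other cells in the B2m difference was not tested. In bulk ganglia, more cells that make a transcript and more transcript per cell cannot be told apart.

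The classical class I genes H2-K1 and H2-D1, which encode the heavy chains that present to CD8 T cells in this strain, made up 79.7% to 82.2% of all class I heavy chain CPM in each library, and neither passed the test. H2-K1 (chr17:33996017-34000347, minus strand) had 101, 116, 106, 106 and 101 CPM in icKO 1 to 5, against 95.2, 90.5, 94.2 and 92.5 CPM in control 1 to 4. The groups did not overlap, and the control libraries were close together. The means were 106 ± 6.11 CPM in icKO and 93.1 ± 2.06 CPM in control (SD, n = 5 and 4), with a log2 FC of 0.19 (SE 0.05; adjusted p = 0.162, edgeR's test). With DESeq2 it passed, at an adjusted p of 0.0363, where 1.19% of the genes it gave an adjusted p for were called higher. H2-D1 (chr17:35262730-35267499, plus strand) had 183, 207, 202, 172 and 202 CPM in icKO 1 to 5, against 194, 171, 178 and 175 CPM in control 1 to 4. The groups overlapped, and the log2 FC was 0.11 (SE 0.07, adjusted p = 0.635). In H2-K1, 9.63% of 50-base stretches also occur in another annotated gene, and in H2-D1 12.8%, so small parts of both counts may depend on how shared reads were treated.

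**Figure D2:**
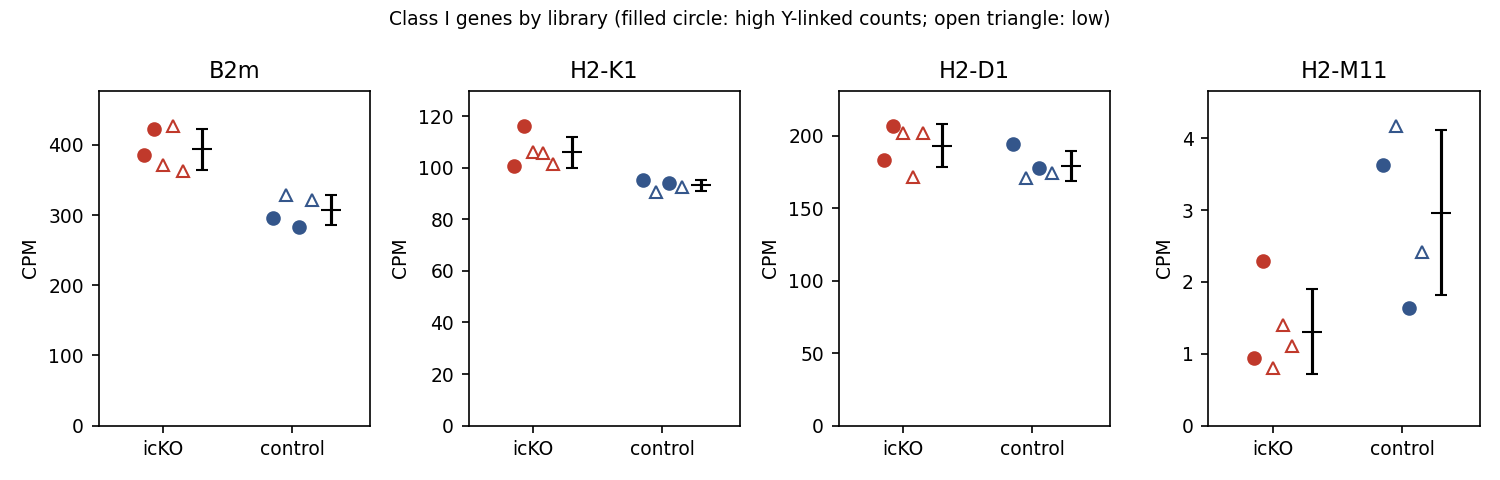
CPM of B2m, H2-K1, H2-D1 and H2-M11 (y axes, from 0) in each icKO and control library, with the group mean and SD as a black bar; filled circles are libraries with high Y-linked counts and open triangles those with low counts. B2m lies at 363 to 426 CPM in icKO and 283 to 328 CPM in control, while H2-D1 overlaps between the groups.

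Summed over the 24 heavy chain genes, the level was 349, 396, 376, 349 and 370 CPM in icKO 1 to 5, against 356, 324, 331 and 334 CPM in control 1 to 4. The groups overlapped, with means of 368 ± 19.9 CPM in icKO and 336 ± 13.5 CPM in control (SD, n = 5 and 4), a ratio of 1.09. B2m CPM divided by this sum was 1.10, 1.07, 0.987, 1.22 and 0.981 in icKO 1 to 5, against 0.833, 1.01, 0.854 and 0.963 in control 1 to 4. Control 2, at 1.01, lay among the icKO libraries. On the scale of CPM per kilobase of annotated exon, the level of B2m was 458 in icKO and 357 in control, that of H2-D1 74.9 and 69.6, and that of H2-K1 36.1 and 31.7. B2m thus stood above every other member per length in both groups.

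Of the 22 other heavy chain genes, known as nonclassical or class Ib genes of the Q, T and M regions, 10 were tested and 0 passed. Unadjusted p fell under 0.05 in 1 higher gene (against 4.85% of all genes tested) and 2 lower genes (against 6.26%). H2-M11, a class Ib gene of the M region (chr17:36547075-36549250, plus strand), had the largest log2 FC of any tested member. It had 0.942, 2.29, 0.801, 1.40 and 1.11 CPM in icKO 1 to 5, against 3.63, 4.16, 1.64 and 2.42 CPM in control 1 to 4. The groups overlapped through icKO 2, which lay above control 3, and the other 4 icKO libraries lay below every control library. These levels rest on 28, 59, 23, 34 and 28 reads in icKO 1 to 5, against 99, 102, 45 and 47 reads in control 1 to 4.

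The log2 FC of H2-M11 was -1.19 (SE 0.32; adjusted p = 0.13, edgeR's test). It passed with DESeq2 (adjusted p = 0.0226, with 1.41% of genes called lower), without the count filter (0.0123) and without icKO 2, where the log2 FC was -1.49 (adjusted p = 0.0413). Among libraries with high Y-linked counts it was -0.71, and among those with low counts -1.60. H2-M11 shares no 50-base stretch with another gene. H2-M5, a further M region gene, had 0.774, 0.620, 0.488, 1.03 and 0.869 CPM in icKO 1 to 5, against 0.990, 1.18, 1.02 and 1.24 CPM in control 1 to 4. The groups overlapped at icKO 4, and the log2 FC was -0.55 (SE 0.23, adjusted p = 0.375). The remaining tested M region genes differed less, with log2 FCs of 0.10 (SE 0.09) for H2-M3, known for presenting N-formylated peptides, and -0.04 (SE 0.25) for H2-M10.2, one of the M10 genes known from vomeronasal neurons.

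Among Q and T region genes, H2-Q4 had 8.34, 12.8, 8.29, 8.96 and 8.77 CPM in icKO 1 to 5, against 9.02, 6.74, 6.71 and 7.06 CPM in control 1 to 4. The groups overlapped because control 1 lay above 4 of the 5 icKO libraries, and the log2 FC was 0.35 (SE 0.15, adjusted p = 0.387). H2-T23, which encodes Qa-1, a ligand of NKG2 receptors, averaged 11.8 ± 0.931 CPM in icKO and 10.32 ± 1.44 CPM in control (SD, n = 5 and 4). Its log2 FC was 0.19 (SE 0.11), and those of H2-T22, H2-T24, H2-Q6 and H2-Q7 lay at 0.13 (SE 0.07), 0.09 (SE 0.15), 0.26 (SE 0.17) and 0.16 (SE 0.16). H2-Q6 and H2-Q7 belong to the genes known for Qa-2. The counts of this group are uncertain, since 53.5% of the 50-base stretches of H2-T22 also occur in another gene, mostly H2-T10 (31.2%), and 36.4% of those of H2-Q4, 35.0% of H2-Q6 and 26.5% of H2-Q7 do.

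**Figure D3:**
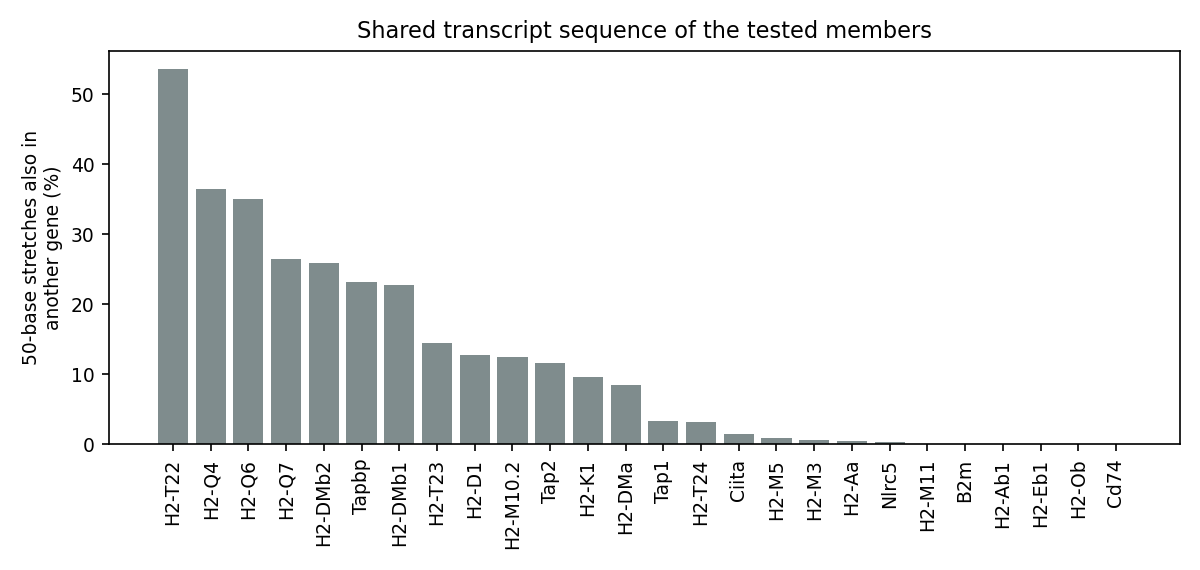
Share of each tested member's 50-base transcript stretches that also occur in another annotated gene (y axis, percent; the genes run along the x axis in falling order). H2-T22 leads at 53.5%, while B2m, H2-M11, H2-Ab1, H2-Eb1, H2-Ob and Cd74 share none.

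The 12 heavy chain genes that were not tested were at or near 0. H2-M10.5 and H2-M10.6 had 0 counts in all 9 libraries, and 9 others had at most 11 counts in any library. The exception was H2-Q1, with 2, 0, 54, 4 and 0 counts in icKO 1 to 5, against 2, 3, 1 and 4 counts in control 1 to 4. A single library, icKO 3 at 1.88 CPM, thus held 54 of its 70 reads, and 15% of the 50-base stretches of H2-Q1 also occur in another gene, mostly H2-Q2.

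The genes that supply peptide to class I showed no call. Tap1, a subunit of the peptide transporter, had 13.2, 19.9, 13.6, 13.2 and 13.1 CPM in icKO 1 to 5, against 14.1, 11.7, 12.1 and 11.9 CPM in control 1 to 4. The 4 icKO libraries other than icKO 2 lay below control 1 but above control 2, control 3 and control 4. The log2 FC of Tap1 over all libraries was 0.23 (SE 0.13, adjusted p = 0.569 by edgeR's test). Its partner Tap2 was at 18.1 ± 0.883 CPM in icKO libraries and 17.7 ± 1.29 CPM in control, with a log2 FC of 0.03 (SE 0.07). Tapbp, which encodes tapasin, was at 66.9 ± 5.65 CPM in icKO libraries and 67.1 ± 3.22 CPM in control, at -0.00 (SE 0.07). Exons of other genes overlap 29% of the exon bases of Tapbp and 18.5% of those of Tap2, so their counts are uncertain in part. Nlrc5, the class I transactivator, had 7.57, 11.6, 7.73, 7.44 and 8.29 CPM in icKO 1 to 5, against 9.82, 5.47, 7.58 and 7.27 CPM in control 1 to 4. Its highest values stood in icKO 2 and control 1, and its log2 FC was 0.17 (SE 0.17, adjusted p = 0.792).

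In Tap1, Nlrc5 and H2-Q4, icKO 2 was highest and control 1 next, and icKO 2 was also highest in all 10 interferon-stimulated genes that were listed outside the MHC. Tap1, Nlrc5 and H2-Q4 were grouped here after their values were seen. The summed level of those 10 genes was 148, 270.4, 169, 180.4 and 153 CPM in icKO 1 to 5, against 186, 149.8, 117 and 142 CPM in control 1 to 4. Control 1 was next to icKO 2 in this sum, though in only 3 of the 10 genes taken singly, and Ifit1 made up much of the sum. Without Ifit1, icKO 2 stayed highest, at 184 CPM, and icKO 4, at 135 CPM, came before control 1, at 132 CPM. Ifit1, an antiviral gene named after its values were seen, had 35.7, 86.1, 39.5, 45.2 and 36.1 CPM in icKO 1 to 5, against 53.3, 29.8, 26.5 and 26.3 CPM in control 1 to 4. Of the 10 genes, 0 passed by edgeR's test, and the median log2 FC was 0.31. An unadjusted p under 0.05 was reached by 4 higher genes (against 4.85% of all genes tested) and 0 lower ones (against 6.26%). All 10 were highest in icKO 2, so these 4 do not stand for independent genes. Bst2, which encodes tetherin, had the smallest adjusted p, with 17.8 ± 2.64 CPM in icKO libraries and 14.2 ± 1.47 CPM in control (log2 FC 0.32, SE 0.11, adjusted p = 0.285).

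**Figure D4:**
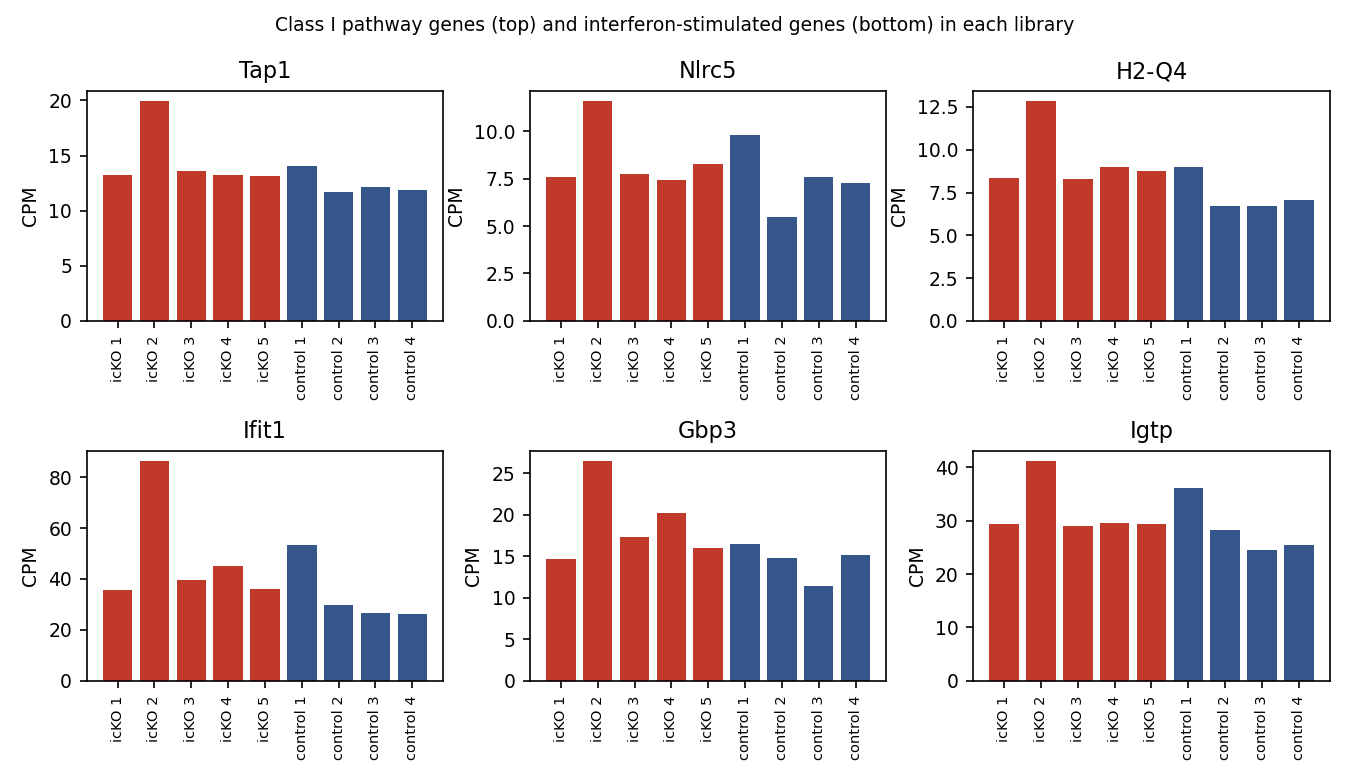
CPM (y axes, from 0) of Tap1, Nlrc5 and H2-Q4 in the top row and of the interferon-stimulated genes Ifit1, Gbp3 and Igtp in the bottom row, 1 bar per library, icKO in red and control in blue. In all 6 panels icKO 2 is highest, at 19.9 CPM for Tap1 and 86.1 CPM for Ifit1. All 6 genes were picked for this figure after their values were seen.

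Other genes of antigen processing, of MHC promoter control and of interferon signalling were taken as lists too. Over the 38 of them other than the interferon-stimulated genes above, 0 passed by edgeR's test, 27 were above 0 and 11 below. Their median log2 FC was 0.10. An unadjusted p under 0.05 was reached by 4 higher genes (against 4.85% of all genes tested) and 0 lower ones (against 6.26%). In 3 of the 38 every icKO library lay above every control library (2.16% of all genes tested): Psme1, Psmb9 and Rfxap. Among 5 genes of the immunoproteasome and the proteasome activator PA28, all were above 0, 2 had an unadjusted p under 0.05, and the summed level was 109 to 119 CPM in icKO and 94.7 to 109.9 CPM in control. Psme1, a PA28 subunit gene, had 35.7, 31.5, 32.8, 36.1 and 31.7 CPM in icKO 1 to 5, against 22.6, 29.5, 28.0 and 29.5 CPM in control 1 to 4. Its log2 FC was 0.30 (SE 0.08, adjusted p = 0.148), and it passed with DESeq2 (0.0441) and without the count filter (0.0494). Psmb9, an immunoproteasome subunit gene next to Tap1 and named after its values were seen, was at 6.16 to 7.94 CPM in icKO libraries and 4.77 to 5.76 CPM in control.

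Of 5 genes for peptide trimming and loading, Erap1, an aminopeptidase gene, had the smallest adjusted p (0.571 by edgeR's test), with a log2 FC of 0.12 and an SE of 0.07, and the list median was 0.01. Of 11 transcription factor genes of MHC promoters and the interferon response, the list median was 0.10 and Rfxap, a subunit of the RFX complex that binds MHC promoters, had the smallest adjusted p (0.377), with a log2 FC of 0.15 and an SE of 0.06. Of 6 interferon receptor and kinase genes, the median was 0.01 and Jak1 had the smallest adjusted p (0.582), with a log2 FC of 0.11 and an SE of 0.06. Of 5 MHC-like genes outside the H2 names, the median was 0.14 and Hfe, known for its part in iron uptake, had the smallest adjusted p (0.638), with a log2 FC of 0.16 and an SE of 0.10. None of these lists held a gene that passed by edgeR's test, and 1 gene in all, Rfxap, had an unadjusted p under 0.05.

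Of 11 class II genes, 9 were tested and 0 passed by edgeR's test, with 0 at an unadjusted p under 0.05 and a median log2 FC of 0.22 (7 above 0, 2 below). H2-Aa, the alpha chain gene of I-A (chr17:34282744-34287823, minus strand), had 96.4, 89.4, 107, 148 and 102 CPM in icKO 1 to 5, against 58.2, 118, 60.9 and 103 CPM in control 1 to 4. Control libraries 1 and 3 were lowest, while control 2 and 4 lay among the icKO libraries. The means were 108 ± 23.1 CPM in icKO and 85.0 ± 30.0 CPM in control (SD, n = 5 and 4), with a log2 FC of 0.35 (SE 0.21, adjusted p = 0.594).

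The I-A beta chain gene H2-Ab1 (chr17:34257689-34269419, plus strand) had 49.8, 45.3, 49.1, 65.5 and 57.1 CPM in icKO 1 to 5, against 30.5, 69.7, 34.1 and 49.7 CPM in control 1 to 4. The I-E beta chain gene H2-Eb1 (chr17:34305867-34316674, plus strand) had 72.1, 65.2, 79.0, 96.1 and 70.9 CPM in icKO 1 to 5, against 47.7, 89.3, 50.1 and 68.9 CPM in control 1 to 4. As for H2-Aa, control 1 and control 3 were lowest and icKO 4 and control 2 highest in both genes. Cd74, the invariant chain gene (chr18:60803848-60812652, plus strand), had 87.8, 80.4, 90.8, 113 and 95.8 CPM in icKO 1 to 5, against 60.2, 115, 60.6 and 82.8 CPM in control 1 to 4. The log2 FCs were 0.22 (SE 0.20) for H2-Ab1, 0.26 (SE 0.17) for H2-Eb1 and 0.23 (SE 0.17) for Cd74, with adjusted p-values of 0.779, 0.639 and 0.693 by edgeR's test. Per kilobase of exon, the level of Cd74 was 55.7 CPM in icKO and 47.4 CPM in control, that of H2-Eb1 39.4 and 32.9, that of H2-Aa 28.6 and 22.4, and that of H2-Ab1 20.8 and 17.9.

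**Figure D5:**
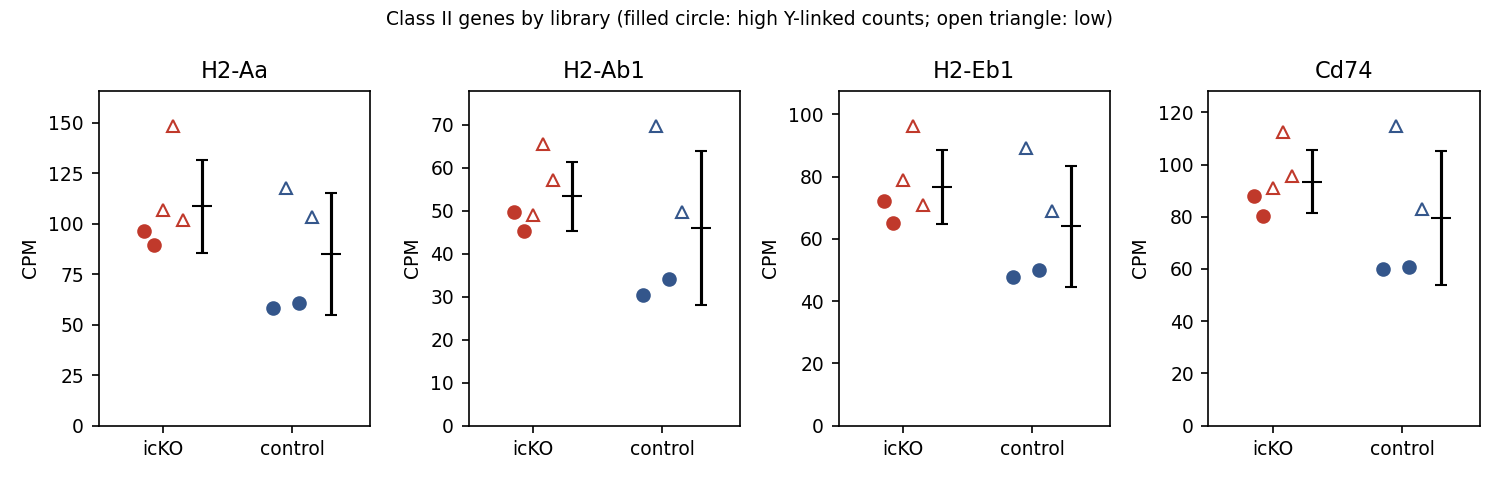
CPM of H2-Aa, H2-Ab1, H2-Eb1 and Cd74 (y axes, from 0) in each icKO and control library, with the group mean and SD as a black bar; filled circles are libraries with high Y-linked counts and open triangles those with low counts. Within control, both filled circles lie below both open triangles in all 4 genes, for H2-Aa at 58.2 and 60.9 CPM against 103 and 118 CPM.

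The libraries stood in much the same order in these 4 class II genes, and within each group those with high Y-linked counts were at the low end of H2-Aa. The sum of H2-Aa, H2-Ab1, H2-Eb1 and Cd74 was 306, 280.3, 326, 422 and 326 CPM in icKO 1 to 5, against 197, 391, 206 and 305 CPM in control 1 to 4. The groups overlapped, and the ratio of the means was 1.21. Libraries with high Y-linked counts had 197 to 306 CPM and those with low counts 305 to 422 CPM. For high over low Y-linked counts, with the group as covariate, the log2 FC was -0.59 (SE 0.13) for H2-Aa, -0.54 (SE 0.14) for H2-Ab1, -0.45 (SE 0.11) for H2-Eb1 and -0.45 (SE 0.11) for Cd74. Their adjusted p-values by edgeR's test were 0.227 for H2-Aa and 0.345 for the other 3, so none passed, against 0.0927% of all genes that did. All 9 tested class II genes were below 0 in this comparison with a median of -0.45, and 6 had an unadjusted p under 0.05 (4.14% of all genes tested, in that direction). The other 17 tested members had a median of 0.02, and 2 of them, Tap1 and Nlrc5, had an unadjusted p under 0.05, both above 0 (3.43% of all genes).

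The icKO over control values of class II were also taken within each class of Y-linked counts. Among libraries with high counts, 2 per group, the log2 FC was 0.65 (SE 0.07) for H2-Aa, 0.57 for H2-Ab1, 0.50 for H2-Eb1 and 0.49 for Cd74, and the adjusted p of H2-Aa was 0.0953 by edgeR's test. Within those with low counts, 3 icKO and 2 control, the values were 0.11, -0.06, 0.05 and 0.01. Tests of the difference itself gave unadjusted p-values of 0.0165 for H2-Ab1, 0.0284 for H2-Aa, 0.0372 for Cd74 and 0.0517 for H2-Eb1 by edgeR's quasi-likelihood test, and adjusted p-values of 1.00 for all 4. Over all genes, 1.63% had an unadjusted p under 0.05 in this test and 0 passed.

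Markers of the cells known for class II were summed for the same libraries. The sum of 9 macrophage markers was 133, 125.9, 161, 199 and 141 CPM in icKO 1 to 5, against 97.3, 157, 214 and 140.1 CPM in control 1 to 4. Control 1 was lowest in all 9 markers. In the sum control 3 was highest, with 42.0 CPM of Adgre1 there against 5.83 to 12.9 CPM in the other libraries. Without Adgre1, icKO 4 was highest, at 186 CPM, against 172 CPM in control 3. In 3 markers, Csf1r, Mrc1 and Fcgr1, icKO 4 and control 2 were highest, as in the class II genes, and in 4 control 3 was highest. The 9 macrophage markers included 0 that passed and 0 at an unadjusted p under 0.05. The sum of 7 dendritic cell markers was 52.2 to 53.8 CPM in icKO and 55.1 to 62.8 CPM in control, without overlap. Among single genes tested, every icKO library lay below every control library in 2.34%. Most of it was Flt3, at 29.9 to 32.2 CPM in icKO and 30.9 to 41.7 CPM in control, and Zbtb46, at 17.8 to 19.5 CPM in icKO and 14.7 to 21.0 CPM in control. The log2 FC was -0.26 (SE 0.08) for Flt3 and 0.09 (SE 0.09) for Zbtb46. Clec9a (means of 1.18 CPM in icKO and 1.23 CPM in control) and Cd209a (0.849 and 1.16 CPM) were lower in icKO. Itgax (0.766 and 0.656 CPM), Xcr1 (0.343 and 0.224 CPM) and Ccr7 (0.145 and 0.126 CPM) were higher in icKO. The 7 genes thus went both ways, and their sum cannot be read as a number of dendritic cells. Of the 5 dendritic cell markers tested, 0 passed by edgeR's test, and Flt3 alone had an unadjusted p under 0.05 (6.26% of all genes tested, in that direction). B cell markers summed to 1.63 to 2.67 CPM in icKO and 1.39 to 2.55 CPM in control over 5 genes, and T and NK cell markers to 2.79 to 5.51 CPM in icKO and 2.05 to 5.56 CPM in control over 8. Fibroblast markers summed to 753 to 1768 CPM in icKO and 599 to 1283 CPM in control, with control 1 lowest. The part of any of these cells in the class II values was not tested.

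H2-DM is the chaperone that exchanges peptides on class II, and H2-O holds it in check. H2-DMa, its alpha chain gene, had 16.6, 16.6, 16.0, 17.4 and 16.2 CPM in icKO 1 to 5, against 15.9, 18.0, 17.4 and 17.7 CPM in control 1 to 4. It did not share the spread of the I-A and I-E genes, and its log2 FC was -0.06 (SE 0.07, adjusted p = 0.813). The beta chain gene H2-DMb1 had 5.58, 4.30, 5.75, 6.54 and 5.37 CPM in icKO 1 to 5, against 3.26, 6.74, 4.37 and 4.53 CPM in control 1 to 4, at 0.22 (SE 0.19). H2-DMb2 had 0.606, 0.271, 0.418, 0.658 and 0.197 CPM in icKO 1 to 5, against 0.183, 0.449, 0.437 and 0.464 CPM in control 1 to 4. These last 2 genes share sequence, with 22.7% of the 50-base stretches of H2-DMb1 found in H2-DMb2, so that their split is uncertain.

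H2-Ob had 0.471, 0.387, 0.662, 0.576 and 0.355 CPM in icKO 1 to 5, against 0.220, 0.939, 0.474 and 1.08 CPM in control 1 to 4. The groups overlapped, and the log2 FCs of H2-DMb2 and H2-Ob, at 0.19 and -0.41, had an SE of 0.39 each. H2-Oa, at 0.0697 to 0.158 CPM in icKO and 0.0729 to 0.245 CPM in control, and H2-Eb2, with at most 1 count in any library, were not tested. Ciita averaged 2.93 ± 0.419 CPM in icKO and 2.54 ± 0.421 CPM in control (SD, n = 5 and 4), with a log2 FC of 0.20 (SE 0.16, adjusted p = 0.723). Of 6 genes for class II proteases and turnover, 0 passed, the median was 0.06, and Ifi30, a lysosomal thiol reductase gene, had the smallest adjusted p (0.393), with a log2 FC of 0.25 and an SE of 0.10.

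Haplotype bears on which genes can be counted. Mice of C57Bl6 background carry the b haplotype, known to lack a functional I-E alpha chain, and the annotation lists that gene as the pseudogene H2-Ea-ps. It had 0 counts in all 9 libraries, which allows at most 0.101 to 0.155 CPM per library for counting error, while its beta partner H2-Eb1 was counted at 47.7 to 96.1 CPM. Of 45 genes with an H2 symbol, 11 are annotated as pseudogenes and are not members. H2-Ke6, an enzyme gene of the region, shares 86.4% of its exon bases with the overlapping gene Gm20427 and had at most 11 counts, so no value of its own can be given.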

How the data were processed

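Raw read counts per gene were deposited by the authors, 1 table per library for 55536 Ensembl genes. Per the submitters' processing notes the tools were featureCounts 1.5.0-p1 for counting, STAR 2.5.2a and bcl2fastq 2.20.0.422, on mm10. How multiply matching reads and strand were handled is not given there, so overlapping and near-identical genes could not be separated. Symbols, gene types and exons came from a GENCODE annotation on the same build, in which all identifiers were found.

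Genes were filtered with filterByExpr by group (minimum count 10, minimum total 15), scaled with TMM and tested with edgeR 4.0.16 (quasi-likelihood, R 4.3.3). Benjamini-Hochberg adjustment ran over all 17258 genes tested. CPM are counts over TMM-scaled library sizes, and floors of 3 counts cover counting error only. The biological coefficient of variation was 0.115. Pairs of replicate libraries differed beyond sampling noise (chi-square over its degrees of freedom 6.07 to 23.5), so each counted once. Separate preparations of the same tissue can differ in this way too, so the values do not show that the libraries come from separate animals. The test was checked on simulated counts. DESeq2 1.42.0, other scalings, filters and a Y-linked covariate were alternatives. The split into high and low Y-linked counts, at 10 CPM, was added after the data were seen.

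Members and lists were chosen with earlier results of these data known. Every tested member was named. Values per library were given for members called, classical class I genes, B2m, class II chains, Cd74 and the 4 smallest adjusted p, and other lists gave their called gene or the smallest adjusted p. Outside this rule, Tap1, Nlrc5, H2-Q4 and H2-Q1 were also given per library, after their values were seen. Each held a library far from the rest of its group.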

Additional observations from a re-analysis of the deposited data

Results flagged for a closer look

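Of 88 groups of 4 or 5 values examined, 9 held a library far from the rest of its group. Chance alone gives about 1 in 20 where groups are independent. These groups share libraries and related genes, so their number cannot be set against that rate. In icKO 2, 4 values stood apart. Tap1 was at 19.9 CPM there, against 13.1 to 13.6 CPM in the other icKO libraries. Nlrc5 was at 11.6 CPM, against 7.44 to 8.29 CPM. H2-Q4 was at 12.8 CPM, against 8.29 to 8.96 CPM. The summed interferon-stimulated genes were at 270.4 CPM, against 148 to 180.4 CPM.

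In icKO 3, H2-Q1 was at 1.88 CPM, against 0 to 0.164 CPM in the other icKO libraries. In control 1, H2-Q4 was at 9.02 CPM, against 6.71 to 7.06 CPM in the other control libraries. In the same library H2-DMb2 was at 0.183 CPM, against 0.437 to 0.464 CPM, and the summed fibroblast markers were at 599 CPM, against 1204 to 1283 CPM. In control 4, H2-Q6 was at 3.81 CPM, against 2.42 to 2.61 CPM in the other control libraries.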

How the results depend on the processing

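Among members, 1 was called higher and 0 lower. The count of higher members was 2 with DESeq2 (B2m and H2-K1), 0 with the replicate number as a block (replicate block), 0 within either class of Y-linked counts and 0 to 1 over libraries left out in turn. The count of lower members was 1 with DESeq2, 1 without the count filter and 0 to 1 over libraries left out, in each case H2-M11. Of the 48 other listed genes, interferon-stimulated genes included, 1 (Psme1) was called higher with DESeq2 and 1 without the count filter. The cause was not tested; settings that leave out, block or split libraries use fewer of them. Of the 26 tested members, 18 kept their direction and 23 their call under every alternative run.

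Log2 fold changes of 8 members turned direction under some alternative. Tapbp was at 0.0098 with library size only, 0.0061 without the count filter, 0.022 within low Y-linked counts and -0.024 to 0.039 over libraries left out, within which it lay above 0 at 0.015, 0.0079 and 0.020 too. Leaving out 1 library gave -0.013 to 0.061 for Tap2, -0.055 to 0.25 for H2-T24, -0.22 to 0.12 for H2-M10.2 and -0.059 to 0.37 for H2-DMb2. Within low Y-linked counts H2-M10.2 was at 0.062, H2-DMb2 at -0.11 and H2-Ab1 at -0.064, and within high ones H2-DMa was at 0.0014 and H2-Ob at 0.32.

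No pairing of the libraries by replicate number was seen. Deviations of same-numbered libraries correlated at 0.10, -0.18, -0.04 and 0.17, and 0 of 8 libraries correlated best with their own number. With so few pairs, these values cannot exclude a shared origin behind the numbers. With the replicate block over libraries 1 to 4, B2m had an adjusted p of 0.0562 by edgeR's test, against 0.0379 for the same libraries without it, and calls over all genes were 28 higher and 20 lower, against 57 and 38. Over all genes, 82 higher and 65 lower calls became 197 and 234 with DESeq2 (45.7% higher), 172 and 221 without the count filter (43.8% higher), and 45 to 85 and 33 to 90 over libraries left out. Depth limits members under 1 CPM, whose SE reached 0.39.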

Other observations

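Of the 11 H2 pseudogenes outside the gene set, 3 passed the count filter and 0 were called by edgeR's test. H2-K2 was at 3.88 ± 0.444 CPM in icKO libraries and 4.36 ± 0.825 CPM in control (SD, n = 5 and 4), with -0.17 on the log2 scale (SE 0.15; adjusted p = 0.761). H2-T10, which shares sequence with H2-T22, was at 1.05 ± 0.283 CPM in icKO libraries and 0.996 ± 0.160 CPM in control, and H2-Q5 at 0.595 ± 0.0880 CPM in icKO libraries and 0.584 ± 0.265 CPM in control. The other 8 had at most 10 counts in any library.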
